A study of Homo sapiens with 4 samples.

Results

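Heat shock proteins and chaperones are the proteins that help other proteins fold, keep them from clumping and hand over those that cannot be rescued for degradation. Their mRNAs were compared between U251 cells with and without knockdown of PRMT3, an arginine methyltransferase. U251 is an established human glioblastoma (GBM) cell line. The members were chosen by gene symbol alone: the HSP70, HSP90, HSP110, small heat shock protein (HSPB), mitochondrial chaperonin (HSPD1 and HSPE1) and DNAJ families, the cytosolic chaperonin TRiC, the BAG cochaperones with HSPBP1, and the heat shock transcription factors HSF1 and HSF2. This gave 88 of the 15575 genes in the table. They took between 1.77% and 1.90% of all counts in a library.

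The Ctrl group was 2 libraries of U251 cells with the control lentivirus, whose labels read pGreen_Ctrl, and the PRMT3-KD group was 2 libraries of U251 cells with lentiviral shRNA against PRMT3, both taken at 72 h per the study. Both groups therefore carried a lentivirus, and the sources used here do not name the hairpin used for the sequenced cells, so the knockdown rests on cells of 1 line and an unnamed shRNA. Nothing in the labels says whether libraries of a group came from separate cultures, so p-values measure the spread between these libraries, which may be technical. PRMT3 itself was counted 535 times in each Ctrl library, and 77 and 45 times after knockdown. Its log2 fold change was -3.08 ± 0.314 (SE), with an adjusted p of 0.0177 by the quasi-likelihood test of edgeR, adjusted over all genes by Benjamini and Hochberg. Without Ctrl library 1 or Ctrl library 2 its log2 fold change was -3.08 or -3.07, with adjusted p of 0.0764 and 0.0604 (edgeR). Library totals lay between 24804250 and 29756313 counts.

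The PRMT3-KD libraries lay much further apart than the Ctrl libraries, with a chi-square of 66.7 against 1.41 per degree of freedom, where counting error alone gives about 1. Of the markers of GBM and glial lines, 9 of 10 were listed, among them CD44 at 1650 to 2270 CPM (counts scaled to the library size by TMM, the trimmed mean of ratios in edgeR), and their summed level was 8760 to 8780 CPM in Ctrl and 7670 to 8100 CPM in PRMT3-KD. Most of this sum was VIM, at 4450 to 5400 CPM. SOX9 was the only listed one that edgeR called with over 1.5-fold, lower in PRMT3-KD (log2 fold change -0.65, adjusted p = 0.0215). GFAP stood at 13.1 and 14.3 CPM in Ctrl and at 1.26 and 5.39 CPM in PRMT3-KD. It was not called by edgeR (adjusted p = 0.0958), while DESeq2 and limma-voom called GFAP and FABP7 lower as well. Of 8 markers of other cell types, 3 were listed, with a summed level of 37.6 and 39.5 CPM in Ctrl and 79.5 and 124 CPM in PRMT3-KD, most of it KRT18, and PTPRC under 1 CPM in every library. KRT18 was called higher in PRMT3-KD (log2 fold change 1.37, edgeR adjusted p = 0.0192). The part of these shifts in the results was not tested. In bulk RNA, fewer cells that make a transcript and less of it per cell cannot be told apart.

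The families work as a relay. HSP70 binds short stretches of unfolded protein, J proteins (the DNAJA, DNAJB and DNAJC families) bring clients to it and trigger its ATP hydrolysis, nucleotide exchange factors (BAG proteins, HSPBP1 and the HSP110 proteins) reset it, and HSP90 finishes clients such as kinases and steroid receptors. TRiC, a double ring built from 8 different subunits, folds actin and tubulin. HSF1 switches many of these genes on after heat by binding the heat shock element, repeats of nGAAn in alternating orientation, while chaperones of the endoplasmic reticulum (ER) respond to the ER stress element.

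Both elements were looked for in the promoters, since they are the sequences through which these families are known to be regulated as groups. In windows from 250 bases before to 50 bases after the start of the canonical transcript (GRCh37), the heat shock element was searched as NGAANNTTCNNGAAN on both strands and the ER stress element as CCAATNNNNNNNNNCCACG on both strands. The heat shock element was found in 44 of 14508 promoters (0.303%), of which 7 belonged to the 84 chaperone genes searched (8.33%). The ER stress element was found in 16 promoters (0.11%), and HSPA5 and HSP90B1 were the members among them. The matches of these genes are shown on the strand of the gene, with the element in capitals and positions counted from the first transcribed base as 0.
HSPA8, chr11:122932856-122932930 (-), -56 to -42: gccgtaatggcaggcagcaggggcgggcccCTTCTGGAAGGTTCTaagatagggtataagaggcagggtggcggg
HSP90AA1, chr14:102553426-102553500 (-), -89 to -75: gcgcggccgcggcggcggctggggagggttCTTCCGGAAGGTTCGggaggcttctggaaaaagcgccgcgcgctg
HSPH1, chr13:31736057-31736131 (-), -60 to -46: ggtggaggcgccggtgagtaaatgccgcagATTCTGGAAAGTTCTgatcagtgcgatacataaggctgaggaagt
HSPA6, chr1:161494225-161494299 (+), -75 to -61: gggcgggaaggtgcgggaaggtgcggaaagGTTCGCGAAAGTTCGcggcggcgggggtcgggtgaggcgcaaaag
HSPD1, chr2:198364766-198364814 (-), -246 to -232: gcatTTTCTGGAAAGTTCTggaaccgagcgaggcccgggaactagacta
DNAJB6, chr7:157129536-157129610 (+), -132 to -118: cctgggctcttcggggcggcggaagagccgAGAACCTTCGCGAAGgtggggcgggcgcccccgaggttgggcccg
DNAJA1, chr9:33025266-33025294 (+), 2 to 16: gccgggcGGAACTTTCCAGAACgctcggt
HSPA5, chr9:128003640-128003718 (-), -66 to -48: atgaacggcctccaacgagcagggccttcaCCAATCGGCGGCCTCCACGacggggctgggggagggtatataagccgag
HSP90B1, chr12:104323964-104324042 (+), -194 to -176: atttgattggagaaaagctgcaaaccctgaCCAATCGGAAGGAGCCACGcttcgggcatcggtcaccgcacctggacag
HSPA8 and HSP90B1 each had 1 further match in the window, and HSPD1 had 1 that overlaps the match shown. A match is a description of these letters and not a bound site. Only exact matches in this window were searched, so a gene without a match may still hold an imperfect or more distant element.

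Most chaperone genes lay close to their Ctrl level after PRMT3 knockdown. Of the 88 members, 79 had enough counts to be tested, and the median size of their log2 fold changes, regardless of sign, was 0.178, against 0.293 over all genes tested. This median followed the level of the genes. It was 0.132 for the 33 members at 100 CPM or more in Ctrl. For the 46 tested members under 100 CPM it was 0.294, the same as over all genes to within 0.01. Past the threshold, an adjusted p below 0.05 with a change of more than 1.5-fold, 4 members were higher in PRMT3-KD (5.06% of those tested, against 4.97% of all genes tested) and 2 were lower (2.53%, against 5.97% of all genes). DNAJB2, DNAJB6, DNAJC12 and HSPB8 were the higher genes, and CCT3 and HSPBP1 the lower ones. The share of higher members was near the background of all genes, so the count is not a result particular to chaperones. At adjusted p under 0.05 with no minimum fold, 8 members were higher (10.1%, against 8.39%) and 4 were lower (5.06%, against 8.91%). An unadjusted p under 0.05 was found for 28 of the 79 members and for 4950 of the 13172 genes tested (edgeR). The median log2 fold change was 0.07 over the members tested and 0.01 over all genes tested.

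These calls depended on the libraries. With library totals in place of TMM scaling, 2 members were higher and 2 lower, and DNAJB2 and DNAJC12 were not called. With either Ctrl library left out, 0 members and 0 genes of the whole table were called by edgeR, with 10 members at an unadjusted p under 0.05 without Ctrl library 1 and 8 without Ctrl library 2. The log2 fold changes of the 6 called members then moved little, with adjusted p between 0.147 for CCT3 and 0.46 for DNAJC12. Leaving out a PRMT3-KD library leaves 1 library in that group, and the near-equal Ctrl libraries then set the spread. Calls in those fits are therefore no support for the genes called. With any 1 library left out, the log2 fold change lay between -1.39 and -0.88 for CCT3, -0.76 and -0.74 for HSPBP1, and 0.66 and 0.72 for DNAJB6. It lay between 0.6 and 0.66 for HSPB8, 0.82 and 0.99 for DNAJC12, and 0.56 and 0.89 for DNAJB2.

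**Figure D1:**
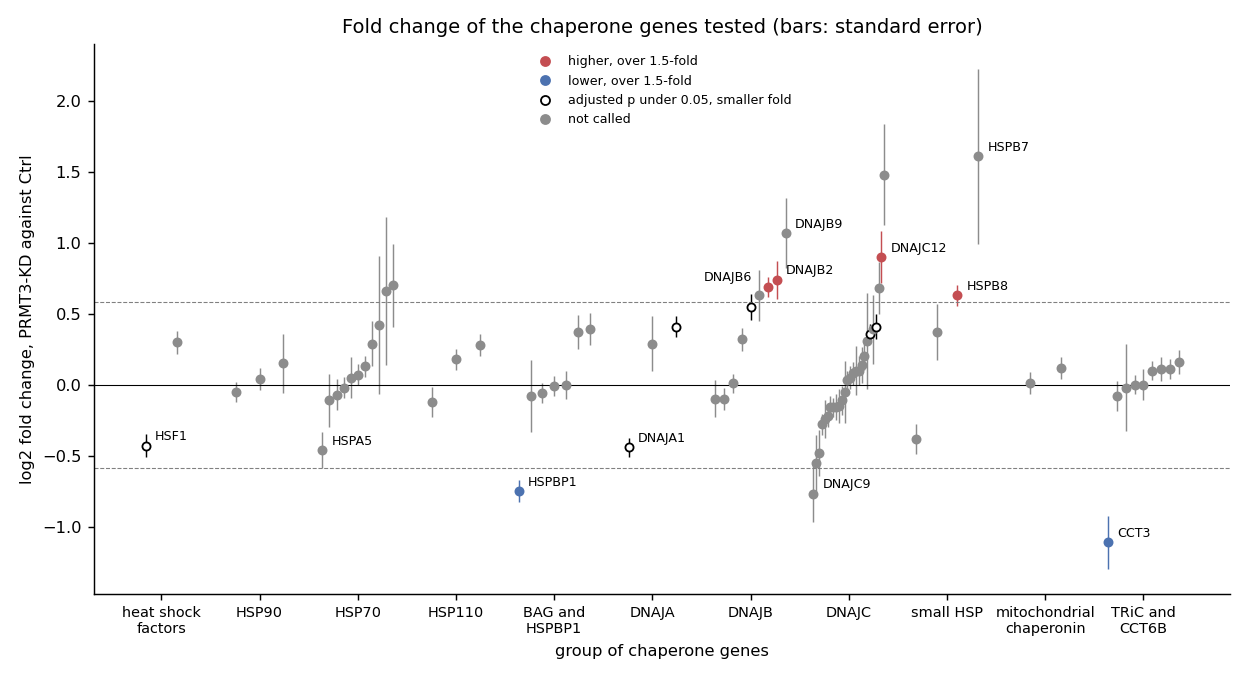
Log2 fold change (PRMT3-KD against Ctrl, vertical axis) of each of the 79 chaperone genes tested, by group along the horizontal axis, with bars for the standard error and dashed lines at 1.5-fold. CCT3 (-1.11) stands below all other TRiC genes, HSPBP1 (-0.75) is the other gene called lower, and the 4 genes called higher are DNAJB2, DNAJB6, DNAJC12 and HSPB8.

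Among the 6 called members, CCT3 of TRiC had the largest fold change. CCT3 (ENSG00000163468, chr1:156278759-156337664, minus strand), the gamma subunit, was at 382 and 383 CPM in the Ctrl libraries and at 209 and 146 CPM in the PRMT3-KD libraries. Both knockdown libraries were far below both controls. The Ctrl mean was 383 ± 0.973 CPM and the PRMT3-KD mean 177 ± 44.5 CPM (SD over 2 libraries), and the log2 fold change was -1.11 (SE 0.187, 95% confidence interval -1.61 to -0.61, edgeR adjusted p = 0.0308). The value was -0.88 in library 1 and -1.39 in library 2 against the Ctrl mean. Leaving out either Ctrl library ended the call, at adjusted p of 0.158 and 0.147 (edgeR).

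The other 7 subunits of the ring, TCP1, CCT2, CCT4, CCT5, CCT6A, CCT7 and CCT8, had log2 fold changes between -0.08 and 0.16 and adjusted p between 0.259 and 0.982 (edgeR). Their 95% confidence intervals together spanned -0.36 to 0.39, which does not reach the interval of CCT3. CCT6A was at 463 and 471 CPM in Ctrl and at 479 and 405 CPM in PRMT3-KD, so its groups overlapped. TCP1, at 461 and 463 CPM in Ctrl and 547 and 485 CPM in PRMT3-KD, had the highest value of the 7, with a log2 fold change of 0.16. CCT5, which codes the epsilon subunit, had the most counts of the complex, with 797 and 797 CPM in Ctrl and 869 and 729 CPM in PRMT3-KD. CCT6B, the testis-type copy of CCT6A, was near 1 CPM in every library.

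The subunits of TRiC enter the ring in equal numbers, so their levels were set side by side per length, as CPM per kb of the canonical transcript. CCT3 held place 3 of the 8 subunits in Ctrl, at 193 and 194 CPM per kb, and place 8 in PRMT3-KD, at 106 and 73.7 CPM per kb. Its level per kb was 1.24 and 1.25 times the mean of the other subunits in the Ctrl libraries, and 0.619 and 0.481 times that mean in the PRMT3-KD libraries. CCT3 held the same places with the length of all annotated exons. Its share of the summed level per kb of the 8 subunits went from 15.1% in each Ctrl library to 8.12% and 6.43%. The lowest subunit in Ctrl depended on the length used, and was CCT4 with the canonical transcript and CCT2 with all annotated exons.

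**Figure D2:**
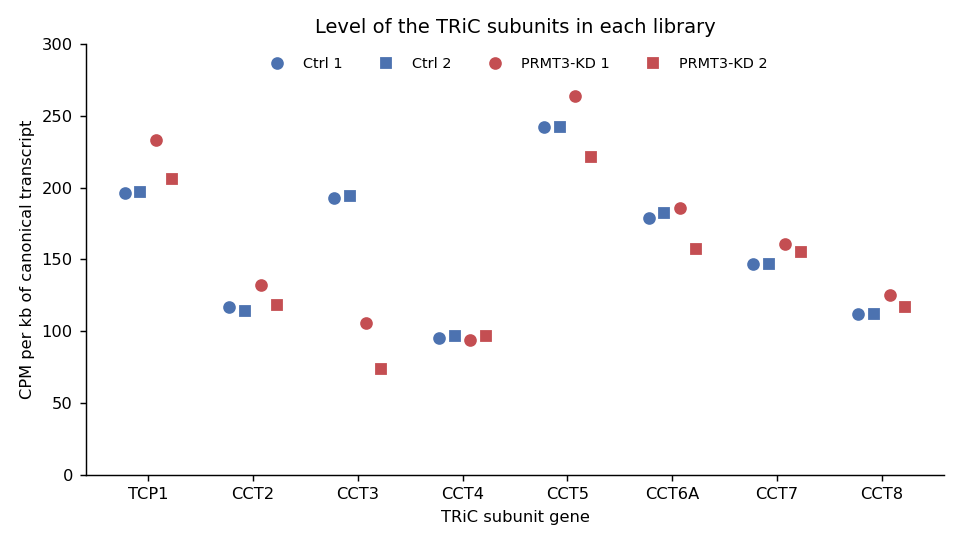
Level of the 8 TRiC subunit genes (CPM per kb of canonical transcript, vertical axis, from 0) in each of the 2 Ctrl and 2 PRMT3-KD libraries. CCT3 drops from 193 and 194 to 106 and 73.7, while the points of the other 7 subunits stay near their Ctrl values.

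CCT3 also carries, in its 3′ UTR, 1 copy of CAGCTCA, a sequence that an earlier scan of these same fold changes picked out among genes that fell, so that no support can be drawn from it. The copy lies in the last of 14 exons, at chr1:156278836-156278864 (minus strand, GRCh37), and is shown in capitals with the bases around it.
CCT3 3′ UTR: cctttctgtccCAGCTCAgttttccaaaa
Of the 79 members tested, 12 carried the sequence in the 3′ UTR of the canonical transcript (15.2%, against 17.4% of all genes with a 3′ UTR). Of these 12, 9 had negative and 3 positive log2 fold changes, and CCT3 was the only gene past the threshold. Their median was -0.07, against 0.10 for the members without the sequence. Over all genes the medians were -0.11 with and 0.03 without the sequence, so this lean is not particular to chaperones. CCT5 carries 2 copies and had a log2 fold change of 0.00 (95% confidence interval -0.28 to 0.29).

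Of the heat shock factors, HSF1 was lower at any fold and HSF2 was not called. HSF1 (ENSG00000185122), the main activator of the heat shock response, was at 79.5 and 84.5 CPM in Ctrl and at 62.5 and 59.2 CPM in PRMT3-KD. Both knockdown values were lower than both Ctrl values, and the log2 fold change was -0.43 (SE 0.0800, edgeR adjusted p = 0.0358), which is under 1.5-fold. The adjusted p of HSF1 was 0.056 with library totals in place of TMM (edgeR). Its exons overlap those of DGAT1 on the other strand, and the sources used here do not say whether counting used strand. HSF2, which can pair with HSF1, was at 31.2 and 30.4 CPM in Ctrl and 38.3 and 37.4 CPM in PRMT3-KD, a log2 fold change of 0.30 (95% confidence interval 0.08 to 0.52, edgeR adjusted p = 0.0731).

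Of the core HSP90, HSP70 and HSP110 genes, 17 were tested. Of these 17 genes tested, 0 had an adjusted p under 0.05 with edgeR at any fold, against 8.39% higher and 8.91% lower of all genes. HSPA5 and HSPH1, 2 of the 17, had an unadjusted p under 0.05 with edgeR, against 4950 of 13172 genes tested. DESeq2 called 0 higher and 1 lower (HSPA5) at any fold, and limma-voom 1 higher (HSPH1) and 1 lower (HSPA5), all under 1.5-fold. HSP90AA1, the inducible cytosolic HSP90, was at 2563 and 2527 CPM in Ctrl and 2528 and 2699 CPM in PRMT3-KD, and its groups overlapped. HSP90AB1, the constitutive form, was at 2333 and 2275 against 2197 and 2257 CPM, all within a narrow range. The log2 fold changes of these genes were 0.04 (95% confidence interval -0.16 to 0.24) and -0.05 (-0.24 to 0.14).

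Among cytosolic HSP70 genes, HSPA8, the constitutive form, was at 1710 and 1714 CPM in Ctrl and 1942 and 1811 CPM in PRMT3-KD, a log2 fold change of 0.13 (95% confidence interval -0.07 to 0.33). HSPA1B, the heat-inducible form, was at 252 and 270 CPM in Ctrl and 274 CPM in each PRMT3-KD library. HSPA1A, its near-identical neighbour, was listed at 8.40 to 9.64 CPM in the 4 libraries. The level of each of these 2 genes is uncertain, because reads of the pair cannot be divided reliably and the table gives nearly all of them to HSPA1B. HSPH1, an HSP110 exchange factor, was at 309 and 306 CPM in Ctrl and 389 and 361 CPM in PRMT3-KD. Its log2 fold change of 0.28 missed the threshold (95% confidence interval 0.08 to 0.48, edgeR adjusted p = 0.0673).

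The ER forms behaved less evenly. HSPA5 (BiP), the HSP70 of the ER lumen, was at 898 and 891 CPM in Ctrl and at 726 and 579 CPM in PRMT3-KD. Both knockdown libraries were lower than both controls, with a log2 fold change of -0.46 that missed the threshold (95% confidence interval -0.80 to -0.11, edgeR adjusted p = 0.0770). Without PRMT3-KD library 1, the log2 fold change of HSPA5 was -0.63. HSP90B1 (GRP94), the HSP90 of the same compartment, was at 1156 and 1147 CPM in Ctrl, at 1018 CPM in PRMT3-KD library 1 and at 1539 CPM in library 2. Its knockdown libraries lay on opposite sides of the controls, and the fitted log2 fold change was 0.15 (95% confidence interval -0.41 to 0.71). HSPA5 and HSP90B1, the members with an ER stress element shown above, were thus both below their Ctrl values in PRMT3-KD library 1. In PRMT3-KD library 2 they lay on opposite sides of their Ctrl values, and a role of the element was not tested.

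Of the 14 members that work in the ER lumen or its membrane, edgeR called 0 past the threshold with over 1.5-fold. Over all genes it called 4.97% higher and 5.97% lower. At any fold, 2 of the 14 were higher (14.3%, against 8.39% of all genes) and 0 lower (against 8.91%). Of the 14, 5 had an unadjusted p under 0.05 with edgeR, against 4950 of 13172 genes tested. The median log2 fold change of the 14 was -0.04. DESeq2 and limma-voom each called 1 of them, DNAJB9, higher with over 1.5-fold, and 1, HSPA5, lower at any fold, with adjusted p for HSPA5 of 0.0261 (DESeq2) and 0.0121 (limma-voom). The genes that edgeR called higher at any fold were DNAJB11, an ER J protein that works with BiP, and DNAJC1, an ER membrane J protein. At any fold, DESeq2 and limma-voom called DNAJB11 but not DNAJC1. DNAJB11 was at 187 and 183 CPM in Ctrl and 289 and 253 CPM in PRMT3-KD, and DNAJC1 at 22.4 and 22.1 against 29.0 and 30.1 CPM. The groups of both genes were apart. Of 13 ER folding factors outside these families, such as calreticulin and the disulfide isomerases, edgeR called ERP44 higher at any fold (log2 fold change 0.45, edgeR adjusted p = 0.0297). This was 7.69% of the 13, against 8.39% of all genes. At any fold, DESeq2 called only ERP44, and limma-voom called ERP44, PPIB and SERPINH1 higher. None of the 13 passed the 1.5-fold threshold with edgeR, DESeq2 or limma-voom, and 3 had an unadjusted p under 0.05 with edgeR.

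HSPD1 and HSPE1, which form the mitochondrial chaperonin and its lid, are neighbours that share a promoter region. HSPD1 was at 596 and 587 CPM in Ctrl and 622 and 570 CPM in PRMT3-KD, with overlapping groups and a log2 fold change of 0.01 (95% confidence interval -0.20 to 0.22). HSPE1 had a log2 fold change of 0.12 (-0.09 to 0.32). The annotation holds 18 pseudogenes of HSPD1 and 26 of HSPE1, so their levels may lose or gain shared reads. HSPA9, the mitochondrial HSP70, was at 425 and 424 CPM in Ctrl and at 594 and 440 CPM in PRMT3-KD, so that its value of 0.29 came mostly from library 1. Of the 10 mitochondrial members, 0 were called at any fold by edgeR, DESeq2 or limma-voom, with 2 at an unadjusted p under 0.05 by edgeR. Over all genes, edgeR called 8.39% higher and 8.91% lower at any fold, with 4950 of 13172 at an unadjusted p under 0.05. Outside the families, CLPB, a mitochondrial disaggregase, and CLPP, the protease subunit of a mitochondrial complex, were lower, with log2 fold changes of -0.65 (edgeR adjusted p = 0.0248) and -0.62 (edgeR adjusted p = 0.0201). The other 8 of these 10 genes were not called.

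Of 38 J proteins tested, edgeR called 3 higher past the threshold (7.89%, against 4.97% of all genes) and 0 lower (against 5.97%). An unadjusted p under 0.05 was found for 18 of the 38 and for 4950 of 13172 genes tested (edgeR). At any fold edgeR called 7 higher (18.4%, against 8.39%) and 1 lower (against 8.91%). DESeq2 called 6 higher and 1 lower past the threshold, against 842 and 992 of all 13172 genes tested. With limma-voom these were 4 and 1, against 788 and 902 genes. The lower gene was DNAJC9 with both tools, and both also called DNAJB9 and DNAJC24 higher. DNAJB6 (ENSG00000105993, chr7:157128075-157210133), a suppressor of aggregation with a heat shock element in its promoter, was at 165 and 170 CPM in Ctrl and at 265 and 275 CPM in PRMT3-KD. The libraries within each group were close together and the groups far apart, with a log2 fold change of 0.69 (SE 0.0696, edgeR adjusted p = 0.0172). The annotation holds 8 pseudogenes of DNAJB6.

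DNAJB2 (ENSG00000135924, chr2:220144064-220151620), a J protein with ubiquitin-binding motifs that is known from neurons, was at 92.4 and 96.7 CPM in Ctrl and at 176 and 139 CPM in PRMT3-KD. Both knockdown libraries were higher, and the log2 fold change was 0.74 (SE 0.136, edgeR adjusted p = 0.0356). Without PRMT3-KD library 1 it was 0.56, which is under 1.5-fold. DNAJC12 (ENSG00000108176, chr10:69556427-69597946), a cochaperone of the aromatic amino acid hydroxylases, was counted 66 and 74 times in the Ctrl libraries and 122 and 133 times in the knockdown libraries, and was the lowest expressed of the called genes. Its log2 fold change was 0.90 (SE 0.186, edgeR adjusted p = 0.0428), and the adjusted p rose to 0.0600 with limma-voom and 0.0581 with library totals.

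DNAJA1, the main cytosolic partner of HSPA8, moved the other way, from 247 and 246 CPM in Ctrl to 185 and 179 CPM in PRMT3-KD. Its groups did not overlap, and the log2 fold change was -0.44 (SE 0.0675, edgeR adjusted p = 0.0266), under 1.5-fold, with 6 pseudogenes in the annotation. DNAJA2, a close relative, was higher, at 109 and 115 CPM in Ctrl and 147 and 150 CPM in PRMT3-KD (log2 fold change 0.41, edgeR adjusted p = 0.0326). DNAJC13, a J protein of endosomes, was higher by 0.36 (edgeR adjusted p = 0.0377). DNAJB1, a strongly heat-inducible J protein, was at 296 and 291 CPM in Ctrl and 297 and 294 CPM in PRMT3-KD, so the groups overlapped (log2 fold change 0.01, 95% confidence interval -0.16 to 0.19).

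Of the exchange factors, HSPBP1 (ENSG00000133265, chr19:55773591-55791749), which releases nucleotide from HSP70 and restrains the ubiquitin ligase STUB1 (CHIP), was lower. It was at 46.6 and 46.0 CPM in Ctrl and at 27.9 and 27.2 CPM in PRMT3-KD. The libraries of each group were nearly equal, with a log2 fold change of -0.75 (SE 0.0803, edgeR adjusted p = 0.0182). BAG3, a heat-inducible BAG protein that links HSP70 to autophagy, was at 147 and 143 CPM in Ctrl and 206 and 168 CPM in PRMT3-KD (log2 fold change 0.37, 95% confidence interval 0.05 to 0.68, edgeR adjusted p = 0.101). The other 5 BAG genes were not called by edgeR or DESeq2 at any fold. Limma-voom called BAG2 and BAG3 higher at any fold, BAG3 with an adjusted p of 0.0398 (limma-voom).

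HSPB8, the small heat shock protein that acts with BAG3, was at 47.2 and 47.0 CPM in Ctrl and at 74.6 and 71.5 CPM in PRMT3-KD. The groups were well apart, with a log2 fold change of 0.63 (SE 0.0738, edgeR adjusted p = 0.0193). HSPB8 lies at chr12:119609360-119662660 (ENSG00000152137). HSPB1 (HSP27), the most abundant small heat shock protein of these cells, was at 574 and 577 CPM in Ctrl, at 604 CPM in PRMT3-KD library 1 and at 887 CPM in library 2. Its log2 fold change of 0.37 (95% confidence interval -0.15 to 0.90, edgeR adjusted p = 0.242) rested mostly on library 2, and was 0.63 without PRMT3-KD library 1. HSPB11, which the annotation names IFT25 and which belongs to a ciliary complex, was at 25.6 and 24.3 CPM in Ctrl and 20.2 and 18.1 CPM in PRMT3-KD and was not called. Of 9 HSPB genes in the table, 5 had too few counts to be tested.

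**Figure D3:**
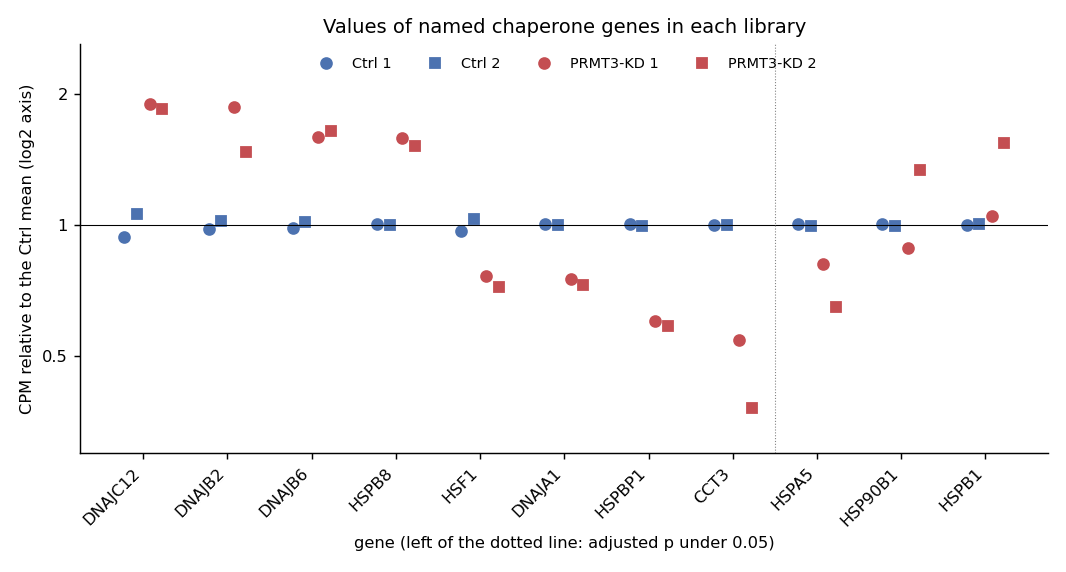
CPM of 11 named chaperone genes in each library relative to the mean of the Ctrl libraries (vertical axis on a log2 scale). DNAJC12, DNAJB2, DNAJB6 and HSPB8 lie above 1 and HSF1, DNAJA1, HSPBP1 and CCT3 below 1 in both PRMT3-KD libraries, while the PRMT3-KD libraries of HSP90B1 lie on opposite sides of 1.

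Of 22 classical heat-inducible genes tested, HSPB8 was higher and 0 were lower past the threshold with edgeR, DESeq2 and limma-voom. An unadjusted p under 0.05 with edgeR was found for 8 of the 22, against 4950 of 13172 genes tested. At any fold, CHORDC1, an HSP90 cochaperone, was also higher (log2 fold change 0.40) and DNAJA1 was lower with edgeR, while limma-voom called 6 higher and 1 lower. With edgeR, 4.55% of the 22 were higher past the threshold, against 4.97% of all genes. At any fold these shares were 9.09% and 8.39%. Positive log2 fold changes were found in 18 of the 22, with a median of 0.13, against 6649 of 13172 genes and a median of 0.01 over all genes. Some of the 18 lay near 0, such as DNAJB1 and HSPD1, each at 0.01. With library totals in place of TMM these 2 were at -0.0194 and -0.0175, so the count depends on the scaling. The list was chosen with earlier results of these data known, and the split was not tested. Of the 7 members with an exact match to the heat shock element in the window searched, DNAJB6 was higher and DNAJA1 was lower at any fold. The other 5 were not called, and the log2 fold changes of the 7 lay between -0.44 and 0.69.

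Partners outside the families were counted in the same fit. Over all genes, that fit called 4.97% higher and 5.97% lower past the threshold, and 8.39% and 8.91% at any fold. It gave 4950 of 13172 genes an unadjusted p under 0.05 (edgeR). Of 14 HSP90 cochaperones, 0 passed the threshold with over 1.5-fold with edgeR, DESeq2 or limma-voom, and 8 had an unadjusted p under 0.05 with edgeR. At any fold CHORDC1 was higher, while FKBP5, an immunophilin of steroid receptor complexes, and PTGES3 (p23) were lower, at -0.56 and -0.35. Of 7 further HSP70 partners, TTC1 was higher (log2 fold change 0.69, edgeR adjusted p = 0.0215) and GRPEL2, a mitochondrial exchange factor, was lower (-1.07, edgeR adjusted p = 0.0172). STUB1 was lower at any fold, at -0.40. Of 9 genes of prefoldin and the partners of TRiC, PFDN5, a prefoldin subunit, was lower (-0.63, edgeR adjusted p = 0.0297) and 8 were not called. Of 5 tubulin folding cofactors, TBCB was lower at any fold (-0.52, edgeR adjusted p = 0.0215).

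Levels per length placed the abundant forms first. In Ctrl the highest members were HSP90AB1 (902 CPM per kb), HSP90AA1 (788), HSPA8 (756) and HSPB1 (741), followed by HSP90B1 (414). In each PRMT3-KD library the same 5 genes led. HSPB1 held place 4 in PRMT3-KD library 1, at 778 CPM per kb, and place 1 in library 2, at 1141 CPM per kb. CCT3 went from place 11 to place 23 of the 79. HSF1 stood at 38.4 and 28.5 CPM per kb and HSF2 at 11.9 and 14.6 CPM per kb in Ctrl and PRMT3-KD. HSPA6, a strictly heat-inducible HSP70 gene named here after its values were seen, was at 0.307 CPM per kb in Ctrl.

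**Figure D4:**
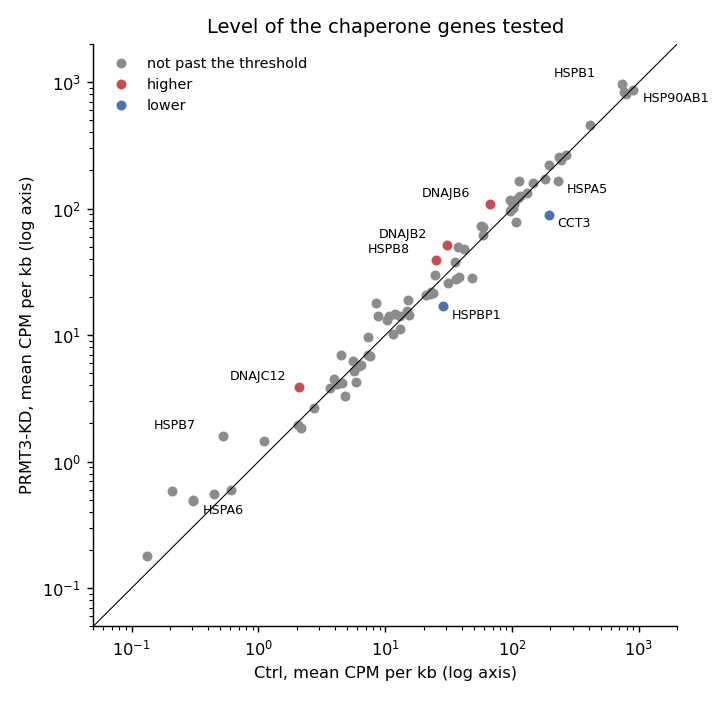
Mean level of each of the 79 chaperone genes tested in Ctrl (horizontal) and PRMT3-KD (vertical), both as CPM per kb of canonical transcript on log axes, with the line of equal levels. CCT3 and HSPBP1 lie below the line, DNAJB2, DNAJB6, DNAJC12 and HSPB8 above it, and HSP90AB1 and most abundant genes lie near it.

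Chaperone genes differed less between the PRMT3-KD libraries than genes at large. The libraries were over 1.5-fold apart for 7 of the 79 members (8.86%) and for 17.0% of all genes tested. The difference in these shares was not tested, and many chaperones are highly expressed. The 7 genes were HSP90B1 and, named here after their values were seen, BAG1, DNAJB9, DNAJC15, HSPA1L, HSPA6 and HSPB7. DNAJB9, an ER J protein, was at 20.7 and 20.03 CPM in Ctrl and at 52.9 and 32.8 CPM in PRMT3-KD, a log2 fold change of 1.07 that missed the threshold (edgeR adjusted p = 0.0538). HSPB7, a small heat shock protein of muscle, was at 1.44 and 0.7998 CPM in Ctrl and at 1.81 and 5.03 CPM in PRMT3-KD (log2 fold change 1.61, 95% confidence interval -0.03 to 3.26). DNAJC9, a J protein that also binds histones and was picked after its values were seen, was at 109 and 114 CPM in Ctrl and at 77.9 and 52.6 CPM in PRMT3-KD (-0.77, edgeR adjusted p = 0.0664), and its exons overlap FAM149B1 on the other strand.

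The 9 members that were not tested had few counts in every library. They were 3 pseudogenes of HSP90 (HSP90AB2P, HSP90AB3P and HSP90B2P), the HSPB1 pseudogene listed as HSPBL3, HSPB2, HSPB3, HSPB6, HSPB9 and DNAJB13. HSPB6, named here after its values were seen, had the most pronounced difference among them, counted 9 and 12 times in the Ctrl libraries and 3 times in each PRMT3-KD library.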

How the data were processed

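The authors aligned reads to hg19 with TopHat and deposited whole-number read counts per gene from Cufflinks without normalization. Versions, annotation, strand setting and gene filter are not given in the sources used here, and the submitters' processing notes also name CASAVA and DESeq2. Libraries were grouped by their labels. After 1 duplicate entry was removed, 99.9% of the 15575 identifiers matched GENCODE 44 lifted to GRCh37, the same assembly as hg19, which gave coordinates, transcript lengths, 3′ UTRs and promoters.

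Genes were filtered with filterByExpr (minimum count 10, minimum total 15), scaled by TMM and tested with edgeR 4.0.16 (glmQLFit and glmQLFTest, R 4.3.3), with Benjamini-Hochberg adjustment over 13172 genes. A gene was called at adjusted p under 0.05 and over 1.5-fold. CPM are edgeR's normalized values on the TMM scale with their SD over 2 libraries, standard errors come from the fold change and the F statistic, and confidence intervals are not adjusted for multiple tests. With 2 libraries a group, the smallest two-sided p that an exact permutation test allows is 0.333, so the p-values come from the model over all genes. Totals were 24804250 to 29756313 counts, and genes with few counts are the least precise. The scripts were tested on simulated data, with a pass required only for equal spread in both groups, unlike the spread of these libraries. Python 3.11.15 with pandas 2.3.3 was used for tables.

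The members, gene lists and markers were chosen with earlier results of these data known. Genes named with values are the members past the threshold, a fixed list of 25 well-known members with PRMT3, and list genes past the threshold. Genes called only at any fold lie outside this rule and were named, like the others marked so, after their values were seen. Alternatives were DESeq2 1.42.0, limma-voom (limma 3.58.1), other scalings, filters and fold limits, the replicate block and leaving out each library.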

Additional observations from a re-analysis of the deposited data

How the results depend on the processing

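As reported, 4 members were higher and 2 lower, and 8 were higher and 4 lower at any fold. DESeq2 called 7 members higher and 3 lower, against 842 and 992 of all 13172 genes tested. With limma-voom and group weights they were 5 and 3, against 788 and 902 genes. Library totals without TMM gave 2 and 2, against 521 and 754 genes, with 2 members higher at any fold. A 2-fold limit left 0 higher and 1 lower (CCT3). glmTreat against 1.5-fold called 0 and 0, with 6 members at an unadjusted p under 0.05. Upper-quartile scaling and both count filters called the same 6 genes. With the replicate block, 5 were higher and 3 lower, 5 of them among the 6, with DNAJC12 lost (adjusted p = 0.0758, edgeR) and DNAJB9, DNAJC24 and DNAJC9 called. At any fold the block called 6 higher and 3 lower, and the calls of HSF1 (adjusted p = 0.0707, edgeR) and DNAJA1 (0.06) were lost, as were those of DNAJA2, DNAJC1, DNAJC13, CHORDC1, FKBP5, PTGES3, STUB1 and ERP44. The deviations of same-numbered libraries had a correlation of 0.0222 across genes, and with 2 pairs the numbers are not shown to pair the libraries. Apart from glmTreat, CCT3, HSPBP1, DNAJB6 and HSPB8 were called under all 7 alternatives of test, scaling, filter and block at 1.5-fold. glmTreat called none of them, and the 2-fold limit only CCT3.

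Leaving out each library in turn gave 0 to 10 members higher and 0 to 6 lower, and 0 to 35 and 0 to 23 at any fold. The lone library of a group is then assumed to vary like the other group, so the near-equal Ctrl libraries set the spread when a PRMT3-KD library is left out. PRMT3 ranged from -3.61 to -2.68 on the log2 scale. Signs turned for genes that were not called and lay near 0. CCT5 was -0.002 with limma-voom, -0.0218 with library totals, -0.0012 with the replicate block and -0.1256 to 0.1214 with a library left out. DNAJB1 was -0.0194 and HSPD1 -0.0175 with library totals. With a library left out, the range was -0.0014 to 0.022 for DNAJB1, -0.051 to 0.0683 for HSPD1, -0.0285 to 0.0187 for CCT4, -0.2045 to 0.0336 for CCT6A, -0.0135 to 0.0875 for HSP90AA1, -0.1814 to 0.421 for HSP90B1 and -0.0389 to 0.1274 for HSPA1A. The causes were not tested. The 9 members that were not tested are limited by depth.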
